A study of Arabidopsis thaliana with 8 samples.

Results

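The phytochrome-interacting factors (PIFs) and their relatives PIL1 and HFR1 were examined in Arabidopsis thaliana plants overexpressing ThbZIP1, a bZIP transcription factor gene of Tamarix hispida, and in wild type, with and without abscisic acid (ABA). All array probes whose transcript accession matched the locus tag of PIF1, PIF3, PIF4, PIF5, PIF6, PIF7, PIL1 or HFR1 were taken. These were 13 probes of 8 genes, out of 43603 gene probes and 25410 locus tags with a probe on the array. All 8 genes were among the 19463 locus tags tested.

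Transcripts were measured on 8 Agilent Arabidopsis arrays, each with RNA of 1 sample in 1 colour. The 4 groups of n = 2 arrays were ThbZIP1 overexpression plants of T3 homozygous lines (OE) and wild type of the Columbia background (WT), each given water or 10 µM ABA for 3 h at an age of 4 weeks. Whole plants, roots and shoots together, were pooled for each treatment. The series' design text calls the replicates independent experiments on different plants, while the study's methods describe them as portions of the plants harvested for a treatment, so the spread between replicates, on which every SE and p-value rests, may be that within 1 harvest. How many OE lines were used and which promoter drove ThbZIP1 in them is not given in the sources used here. ThbZIP1 is not an Arabidopsis gene, so its level could not be read as a check on the labels. Arrays were grouped by title, source name, genotype and treatment. The description field of the same samples names other identities (AtbHLH112 plants in water for OE water, an insertion line for WT water, wild type in water for OE ABA, AtbHLH112 plants with NaCl for WT ABA) and was not used.

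PIFs are basic helix-loop-helix transcription factors that promote growth in darkness, shade and warmth. Light-activated phytochromes bind them, and most PIFs are then phosphorylated and degraded, so that PIF activity is set largely at the protein level. PIL1 and HFR1 belong to the same family, are transcribed rapidly when shade stabilizes the PIFs, and HFR1 holds PIF4 and PIF5 in complexes that cannot bind DNA. PIF1 and PIF6 are known for their part in seed germination and dormancy, PIF3 and PIF1 for repressing greening in the dark, PIF4 for growth in warmth, PIF4 and PIF5 for shade growth and leaf senescence in the dark, and PIF7 for the response to shade.

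Between 68.1% and 72.1% of probes per array were well above background, no spot was saturated, and replicate arrays correlated with r of 0.971 to 0.985 over probes. The first WT water array had 1148 outlier spots against 6 to 24 on the others. The OE arrays shared 1 slide and 1 scan day, and the WT arrays were spread over 3 slides scanned on a different day, so genotype and scan day cannot be told apart. The WT files also carry design version 1 of the array and the OE files version 2, which cannot be told apart from genotype either. In WT the water and ABA arrays lay on different slides, so slide and ABA cannot be told apart there. The ABA comparison in OE lay within 1 slide. The summed log2 signal of 3 leaf markers was between 8.80 and 9.24 on all arrays. That of 6 root markers was 0.62 to 0.70 in WT and 0.69 to 1.78 in OE. The summed log2 signal of 3 flower markers was -5.60 to -2.62 in the WT groups and -2.18 to 0.40 in the OE groups, with 1 of 3 markers above background in each WT group and 3 of 3 in each OE group. Of these, 1 of 4 tested root markers (COBL9, higher in water) and 0 of 3 flower markers were called between genotypes by limma. With ABA in OE, COBL9 was called lower (log2 -3.77, adjusted p = 0.0372), fitted to signals not above background in OE ABA. Above background were 4 of 6 root markers in OE water and 3 of 6 in each other group. The part of flower or root RNA in the differences between genotypes or with ABA was not tested.

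Levels are given as log2 of the background-subtracted signal minus the array's 75th percentile, so that 0 is the signal that 75% of the probes on the array do not exceed. Levels of different genes come from different probes and are not compared with each other. A difference was called when its limma adjusted p, Benjamini-Hochberg over all tested probes, was below 0.05 and its size at least 2-fold. In water, 3 of the 8 genes were lower in OE than in WT (PIL1, PIF6 and PIF5) and 0 were higher. Over all locus tags, 9.36% were called lower and 9.86% higher in this comparison, 19.2% in either direction. Under ABA, PIF5 alone was lower in OE than in WT, where 9.91% of locus tags were called in either direction, 5.62% lower and 4.29% higher. Between ABA and water, PIL1 fell in WT, where 0.843% of locus tags were called, 0.262% lower and 0.581% higher. PIF6 rose in OE, where 2.12% were called, 1.7% higher and 0.416% lower. The median log2 difference of the 8 genes between OE and WT was -0.61 in water and -0.22 under ABA, beside 0.06 and 0.08 over all locus tags. For ABA against water it was 0.11 in WT and 0.06 in OE, beside -0.05 and -0.06.

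**Figure D1:**
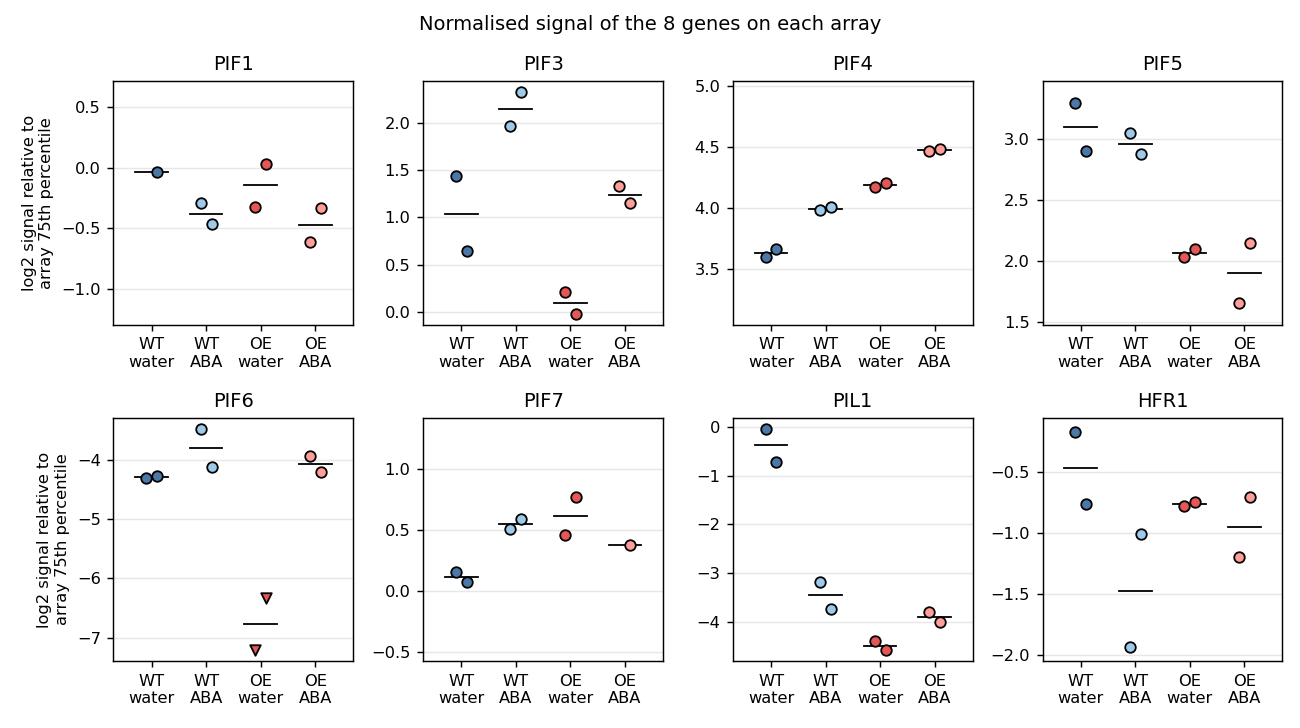
Normalised log2 signal of each gene (vertical axis, relative to the 75th percentile of the array) on each of the 8 arrays by group (horizontal axis). Points are arrays, lines are group means, downward triangles are values not well above background, the vertical scale differs between panels, and arrays with an outlier spot have no point (PIF1 in WT water, PIF7 in OE ABA). PIL1 lay at -0.04 and -0.72 in WT water and between -4.59 and -3.19 on the other 6 arrays.

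PIL1 (AT2G46970), a bHLH gene whose transcript is a standard marker of PIF activity in shade, had the largest called differences among the 8 genes. Its level was -0.04 and -0.72 in WT water, -3.19 and -3.73 in WT ABA, -4.40 and -4.59 in OE water, and -3.81 and -3.99 in OE ABA. PIL1 was thus high on both WT water arrays, which shared 1 slide, and low on the 6 others, which lay on other slides. In whole-plant RNA fewer expressing cells cannot be told apart from less transcript per cell. The order of the groups was WT water, WT ABA, OE ABA and OE water, from high to low, and no neighbouring groups overlapped.

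In water PIL1 was 17.3-fold lower in OE than in WT (log2 difference -4.12, SE 0.29, adjusted p = 0.0016). With ABA it fell 8.47-fold in WT (log2 -3.08, SE 0.29, adjusted p = 0.0180). Both comparisons share the WT water arrays. Under ABA the log2 difference between OE and WT was -0.44 (95% confidence interval -1.14 to 0.26, adjusted p = 0.321), and ABA against water in OE was 0.59 (-0.11 to 1.29, adjusted p = 0.399). The ABA difference in OE exceeded that in WT by 3.67 (SE 0.41) on the log2 scale, with an unadjusted p of 0.0001 and an adjusted p of 0.110, so the interaction was not called. The lower level in OE in water was called in 20 of 21 alternative analyses. The fall with ABA in WT was called in 14 of 21, with log2 differences between -3.42 and -2.68 in all 21. It was lost without either WT ABA array (adjusted p = 0.0677 and 0.123) and without either OE water array (adjusted p = 0.0548 each). The interaction passed without the second WT water array (log2 4.02, adjusted p = 0.0387).

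PIF5 (AT3G59060), which with PIF4 drives shade growth and PIL1 transcription, was lower in OE under both treatments. Its level was 3.30 and 2.90 in WT water, 3.05 and 2.88 in WT ABA, 2.03 and 2.10 in OE water, and 1.66 and 2.15 in OE ABA. All 4 OE arrays lay below all 4 WT arrays, while water and ABA overlapped within each genotype. PIF5 was 2.05-fold lower in OE in water (log2 -1.04, SE 0.22, adjusted p = 0.0199) and 2.09-fold lower under ABA (log2 -1.06, SE 0.22, adjusted p = 0.0301). These sizes lie just past the minimum of 2-fold. The call in water held in 14 of 21 alternatives and was lost without the first WT water array (log2 -0.84, adjusted p = 0.0788) or either OE water array (adjusted p = 0.0773 and 0.0851). That under ABA held in 10 of 21 and was lost without either WT ABA array (adjusted p = 0.151 and 0.0994), either OE water array (adjusted p = 0.0572 each) or the first OE ABA array (log2 -0.82, adjusted p = 0.109). The log2 difference stayed between -1.31 and -0.82 in all of them. ABA against water differed by -0.14 in WT (95% confidence interval -0.68 to 0.41) and -0.16 in OE (-0.71 to 0.38).

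PIF4 (AT2G43010), the PIF best known for growth in warmth, lay in the opposite direction to PIF5. Its level was 3.60 and 3.66 in WT water, 3.98 and 4.01 in WT ABA, 4.17 and 4.20 in OE water, and 4.46 and 4.49 in OE ABA. The 4 groups did not overlap, with an SD within the groups of 0.015 to 0.043 (n = 2). PIF4 was 1.47-fold higher in OE than in WT in water (log2 0.56, SE 0.12, adjusted p = 0.0185) and 1.40-fold higher under ABA (log2 0.48, SE 0.12, adjusted p = 0.0432), past the p threshold and below the minimum fold. ABA against water was 0.36 in WT (adjusted p = 0.213) and 0.29 in OE (adjusted p = 0.319).

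PIF3 (AT1G09530), the founding member of the group, which represses greening in the dark, had its lowest levels in OE water. Its level was 1.43 and 0.64 in WT water, 1.97 and 2.32 in WT ABA, 0.22 and -0.02 in OE water, and 1.33 and 1.15 in OE ABA. The OE arrays lay below the WT arrays of the same treatment, and the ABA arrays above the water arrays of the same genotype, with no overlap in any of the 4 comparisons. WT water and OE ABA, neighbours in the order of levels, overlapped.

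The log2 difference of PIF3 between OE and WT was -0.94 in water (SE 0.29, adjusted p = 0.0542) and -0.90 under ABA (adjusted p = 0.0837). For ABA against water it was 1.11 in WT (95% confidence interval 0.40 to 1.81, adjusted p = 0.154) and 1.14 in OE (0.43 to 1.84, adjusted p = 0.132). None of the 4 passed the adjusted threshold, but the difference in water was called without the second WT water array (log2 -1.33, adjusted p = 0.0280). The ABA difference in the 2 genotypes differed by 0.03 (95% confidence interval -0.97 to 1.03).

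PIF1 (AT2G20180), which keeps seeds from germinating in the dark, varied little. Its level was -0.03 on the WT water array with a value, -0.29 and -0.46 in WT ABA, -0.32 and 0.03 in OE water, and -0.61 and -0.33 in OE ABA. The groups overlapped between genotypes under ABA, and the OE ABA arrays lay below the OE water arrays by a narrow margin. The log2 difference between OE and WT was -0.11 in water (95% confidence interval -0.73 to 0.50, adjusted p = 0.742, fitted without the first WT water array, where the spot was an outlier) and -0.09 under ABA (-0.59 to 0.41, adjusted p = 0.777). With ABA it was -0.35 in WT (adjusted p = 0.537) and -0.32 in OE (adjusted p = 0.499).

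PIF6 (AT3G62090), known from work on seed dormancy, was above background in every group except OE water. Its level was -4.31 and -4.27 in WT water, -3.48 and -4.12 in WT ABA, and -3.93 and -4.21 in OE ABA. The OE water arrays read -7.21 and -6.33, below every other array, and carry only an upper bound. PIF6 was at least 4.29-fold lower in OE than in WT in water (adjusted p = 0.0067) and at least 4.99-fold higher in OE with ABA than with water (adjusted p = 0.0244). Each bound sets the bright group against the lowest signal that counted as above background on the dim arrays, or the probe's own signal where that was higher. The adjusted p-values are those of the fitted limma differences (log2 -2.48 and 2.70), and the bounds themselves were not tested.

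Under ABA the log2 difference of PIF6 between OE and WT was -0.28 (95% confidence interval -1.12 to 0.57, adjusted p = 0.606), and ABA against water in WT was 0.49 (-0.35 to 1.34, adjusted p = 0.530). Both WT water arrays lay below the arrays of the 2 ABA groups, and OE ABA and WT ABA overlapped. The call in water held in 17 of 20 alternatives, with log2 differences from -2.92 to -0.73, the latter with normexp background correction (adjusted p = 0.547). The rise with ABA in OE held in 11 of 20 and was lost when any one of the 4 OE arrays was left out, with log2 differences of 2.26 to 3.14 and adjusted p of 0.0572 to 0.129. With normexp it was 1.72 (adjusted p = 0.426), so neither bound holds under that correction. The interaction was 2.21 on the log2 scale (SE 0.49, unadjusted p = 0.0041, adjusted p = 0.223).

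PIF7 (AT5G61270), which responds to shade through dephosphorylation, gave no call. Its level was 0.16 and 0.07 in WT water, 0.51 and 0.59 in WT ABA, 0.46 and 0.77 in OE water, and 0.38 on the OE ABA array with a value. The first OE ABA array read 3.84 on a spot marked as an outlier, which was left out. The OE water arrays lay above the WT water arrays (log2 0.50, SE 0.16, adjusted p = 0.0741), as did the WT ABA arrays (log2 0.44, adjusted p = 0.288). Under ABA, OE against WT was -0.17 (adjusted p = 0.584) and ABA against water in OE was -0.24 (adjusted p = 0.620). With the outlier spot kept these became 1.56 and 1.49, also without a call.

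HFR1 (AT1G02340), the atypical bHLH that restrains PIF4 and PIF5, was not called in any comparison. Its level was -0.17 and -0.76 in WT water, -1.93 and -1.01 in WT ABA, -0.77 and -0.74 in OE water, and -1.20 and -0.70 in OE ABA. The WT ABA arrays lay below the WT water arrays (log2 -1.01, 95% confidence interval -1.90 to -0.11, adjusted p = 0.259), and all other comparisons overlapped. The log2 difference between OE and WT was -0.29 in water (-1.19 to 0.60, adjusted p = 0.567) and 0.52 under ABA (-0.38 to 1.42, adjusted p = 0.356).

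Of the genes with values on all 4 arrays compared, the groups stood apart in 6 of 7 for OE against WT in water and in 4 of 7 under ABA. They stood apart in 6 of 7 for ABA against water in WT and in 5 of 7 in OE. Over all locus tags, groups of 2 arrays stood apart in 74.1%, 65.9%, 53.1% and 48.6% of cases in these 4 comparisons. For the interaction, 0 of the 8 genes and 0 of the 19463 locus tags (0%) were called by limma. Without adjustment, PIL1 and PIF6 passed p below 0.05 and 2-fold, as did 1255 locus tags in all.

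**Figure D2:**
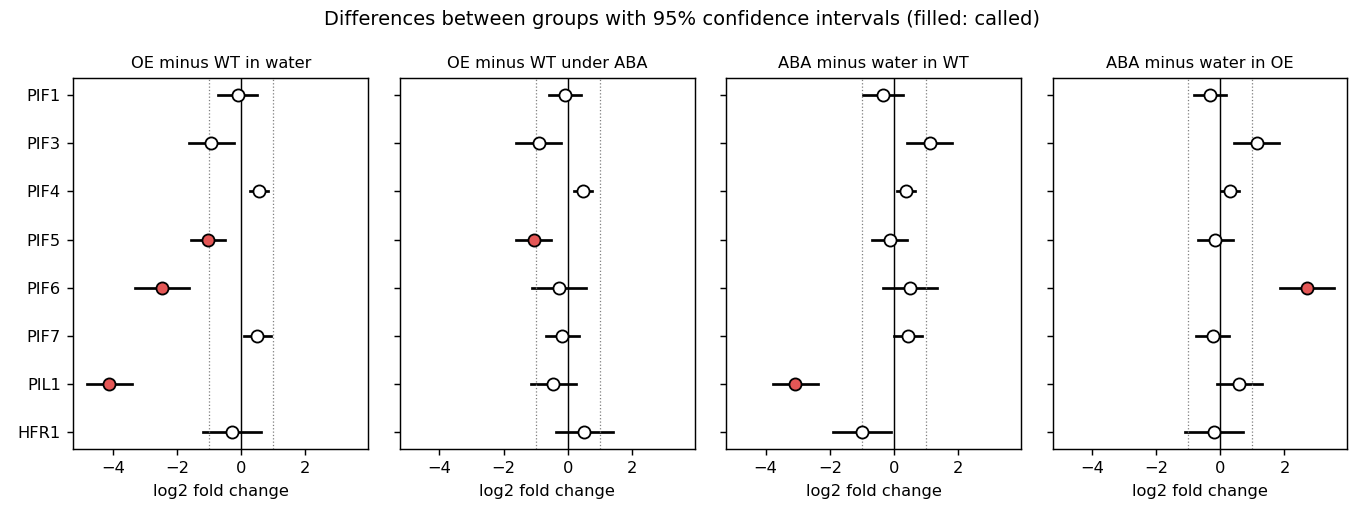
Log2 difference of each gene (horizontal axis) with its 95% confidence interval from the limma fit, in the 4 comparisons between 2 groups. Filled points were called, dotted lines mark 2-fold, and the PIF6 values that involve OE water are fitted to signals not above background. The intervals of PIL1 lay between -4.82 and -2.38 for OE against WT in water and for ABA against water in WT, and included 0 in the other panels.

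A second probe was present for 5 of the genes. For PIL1 the second probe was also called lower in OE in water (log2 -3.53, adjusted p = 0.0036, without the first WT water array) and lower with ABA in WT (log2 -2.59, adjusted p = 0.0444), and it followed the first with r = 1.00 over 7 arrays. For PIF5 it was called lower in OE in water (log2 -1.50, adjusted p = 0.0057) and under ABA (log2 -1.31, adjusted p = 0.0127), with r = 0.99 over 8 arrays. Both probes of PIL1 and of PIF5 thus gave the same calls.

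The second PIF3 probe gave no call and r = 0.97 over 8 arrays, with log2 differences of -0.95 and -0.68 for OE against WT and of 1.20 and 1.47 for ABA against water. The second PIF1 probe gave no call and r = 0.74 over 7 arrays. For PIF7 the probes disagreed, with r = 0.40 over 7 arrays and a log2 difference of OE against WT in water of 0.50 on one and -0.10 on the other. The second PIF7 probe read -4.64 and -3.16 in OE ABA and was -1.35 for OE against WT under ABA (adjusted p = 0.106). PIF4, PIF6 and HFR1 had 1 probe each. The probes of a gene share the array's RNA and are not replicates.

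**Figure D3:**
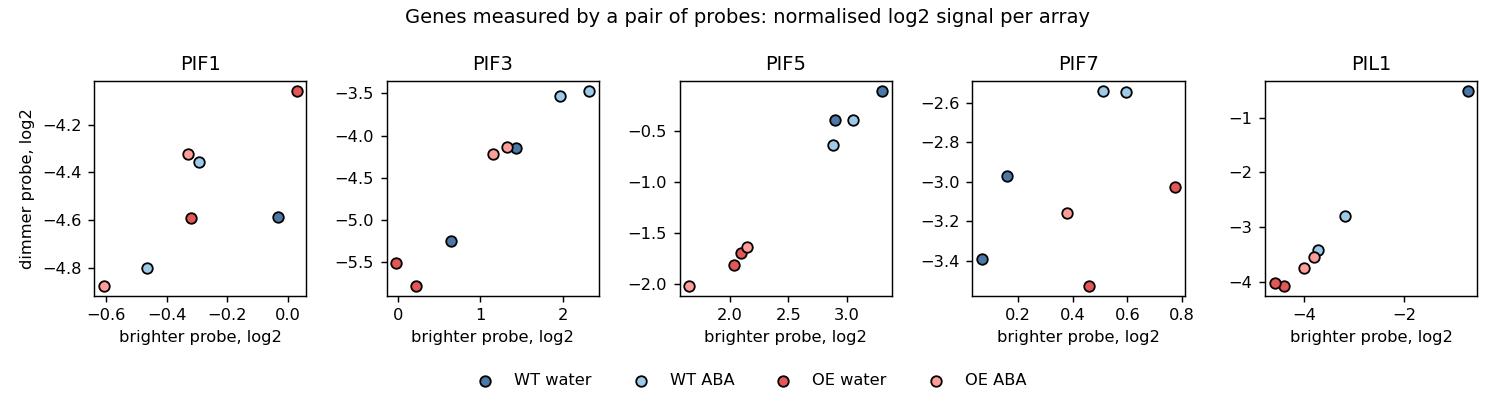
Normalised log2 signal of the brighter probe (horizontal axis) and the dimmer probe (vertical axis) of the 5 genes with a pair of probes. Each point is an array, coloured by group, and arrays with an outlier spot on either probe are left out. The points of PIL1, PIF5 and PIF3 rise along a line (r of 1.00, 0.99 and 0.97), and those of PIF7 scatter (r of 0.40).

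The genes whose pattern over the 8 arrays was most like that of each member were sought by Pearson's r among 18679 locus tags with a value on all arrays, as a description over samples of 4 groups. For PIL1 these were MGE1, encoding a mitochondrial GrpE co-chaperone, and DIR5, encoding a dirigent protein (r = 0.99 each), with 68 locus tags over 0.95. For PIF5 they were ATSK12, encoding a shaggy-like kinase (r = 1.00), and AT2G17350 (r = 0.99), with 201 over 0.95. PIF4 was most like AT1G15970 (r = 1.00) and AT1G10280 (r = 0.99), with 48 over 0.95. PIF3 was most like AT2G47950 and the F-box gene SKP2A (r = 0.98 each), with 30 over 0.95, and HFR1 like AT4G15660 and the kinase gene BSK7 (r = 0.94 each), with 0 over 0.95.

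Genes around the PIFs were read from 10 lists with 74 genes, all with a probe and 72 tested. The lists were written with earlier results of these data known, so their counts are a description and no test of an excess. The calls stand beside these shares over all locus tags. For OE against WT, 9.86% were higher and 9.36% lower in water, and 4.29% and 5.62% under ABA. For ABA against water, 0.581% were higher and 0.262% lower in WT, and 1.7% and 0.416% in OE. Of the 5 phytochromes, the photoreceptors that bind PIFs, PHYD was lower in OE in water (log2 -1.68, SE 0.27, adjusted p = 0.0093), and PHYB, the main phytochrome of light-grown plants, fell with ABA in WT (log2 -1.22, SE 0.17, adjusted p = 0.0475). PHYB lay at 1.81 and 1.38 in WT water and between 0.24 and 0.77 on the 6 other arrays. OE against WT in water was not called for PHYB (log2 -0.86, adjusted p = 0.0166). Of 3 close bHLH relatives, SPT, which restrains growth in the cold, was higher in OE in water (log2 2.01, adjusted p = 0.0104) and under ABA (log2 1.71, adjusted p = 0.0254). UNE10 was lower in OE under ABA (log2 -2.54, adjusted p = 0.0036) and fell with ABA in OE (log2 -1.50, adjusted p = 0.0338).

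Of 11 genes of PIF degradation and light repression, LRB2 and EBF2 were lower in OE in water and 0 higher, beside 9.36% lower over all locus tags, while under ABA SPA3, LRB2 and EBF2 were lower and BOP2 higher, beside 5.62% and 4.29%. EBF2, an F-box gene whose product acts on PIF3, was lower in water (log2 -1.74, adjusted p = 0.0035) and under ABA (log2 -1.76, adjusted p = 0.0053). BOP2, encoding an adaptor that targets PIF4, was higher under ABA (log2 1.83, adjusted p = 0.0166), and SPA3, a COP1 partner, lower (log2 -1.21, adjusted p = 0.0303). With ABA 0 of the 11 were called in either genotype by limma, and 1 in each passed 2-fold and an unadjusted p below 0.05.

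Of 5 DELLA genes, whose proteins hold PIFs off DNA, RGL2 (log2 2.96, adjusted p = 0.0037) and RGL1 (log2 1.3, adjusted p = 0.0037) were higher in OE in water, beside 9.86% over all locus tags. Under ABA 0 were called by limma, beside 4.29% higher and 5.62% lower, with 1 past the unadjusted threshold. Of 9 small HLH genes, 7 were tested. Among them PRE1, a growth-promoting HLH gene, was higher in OE in water (log2 1.69, adjusted p = 0.0099) and under ABA (log2 1.80, adjusted p = 0.0135), and IBH1, which opposes the PRE proteins, was lower in both (log2 -2.13 and -1.26, adjusted p = 0.0019 and 0.0087). PAR2, a shade-induced HLH gene, was higher in water (log2 1.20, adjusted p = 0.0164). Thus 2 of the 7 were higher and 1 lower in water, beside 9.86% and 9.36% over all locus tags. Under ABA 1 was higher and 1 lower, beside 4.29% and 5.62%. The light-promoted bZIP genes HY5 (log2 -1.36, adjusted p = 0.0134) and HYH (log2 -2.74, adjusted p = 0.0038) were both lower in OE under ABA, beside 5.62% over all locus tags. Neither was called in water, where HY5 passed the p threshold but not the minimum fold (log2 -0.78, adjusted p = 0.0354). HYH also fell with ABA in OE (log2 -1.45, adjusted p = 0.0486), beside 0.416% of locus tags.

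Among 15 genes that PIFs turn on in shade or elongation growth, 7 were lower and 1 higher in OE in water, beside 9.36% lower and 9.86% higher over all locus tags. The median log2 difference of the list was -1.49 in water and -0.19 under ABA. The median under ABA became 0.41 without the first WT ABA array, 0.12 without the first OE ABA array and 0.74 with normexp, and was -0.48 without the second WT ABA array, so its direction is not settled. The 7 were ATHB2, ATHB4, HAT1, YUC8, YUC9, CKX5 and ST2A, and the gene that was higher was FHL, whose product carries phytochrome A into the nucleus. ATHB2, a homeodomain gene induced by shade within minutes and like PIL1 a usual marker of PIF activity, lay at 2.50 and 2.64 in WT water, 0.12 and -0.13 in WT ABA, -2.00 and -2.11 in OE water, and -2.39 and -1.92 in OE ABA. WT water was highest and WT ABA next, and the 2 OE groups overlapped.

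ATHB2 was lower in OE in water (log2 -4.63, SE 0.20, adjusted p = 0.0012) and under ABA (log2 -2.15, adjusted p = 0.0040), and fell with ABA in WT (log2 -2.57, adjusted p = 0.0122). ATHB4 was lower in OE in water (log2 -4.10, adjusted p = 0.0131, without the first WT water array), and ST2A, encoding a jasmonate sulfotransferase, was at least 46.4-fold lower there (adjusted p = 0.0028), since its probe was not above background in OE water. The adjusted p of ST2A is that of its fitted difference (log2 -5.64), and the bound itself was not tested. With ABA, HAT1, a relative of ATHB2 singled out after its values were seen, fell in WT (log2 -2.53, adjusted p = 0.0109) and in OE (log2 -1.49, adjusted p = 0.0227). With ABA, 2 of the 15 were called lower in WT and 0 higher, beside 0.262% and 0.581% over all locus tags. In OE 1 was called higher (ST2A, at least 10.1-fold) and 1 lower, beside 1.7% and 0.416%. The median log2 difference of the list with ABA was -1.28 in WT and -0.08 in OE. In WT, ATHB4 (log2 -4.06), YUC9 (-3.06) and YUC8 (-2.20) were past 2-fold without a call. The count of 8 called in water was 4 without the second WT water array, 5 without the first OE water array and 2 with another background correction (normexp).

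**Figure D4:**
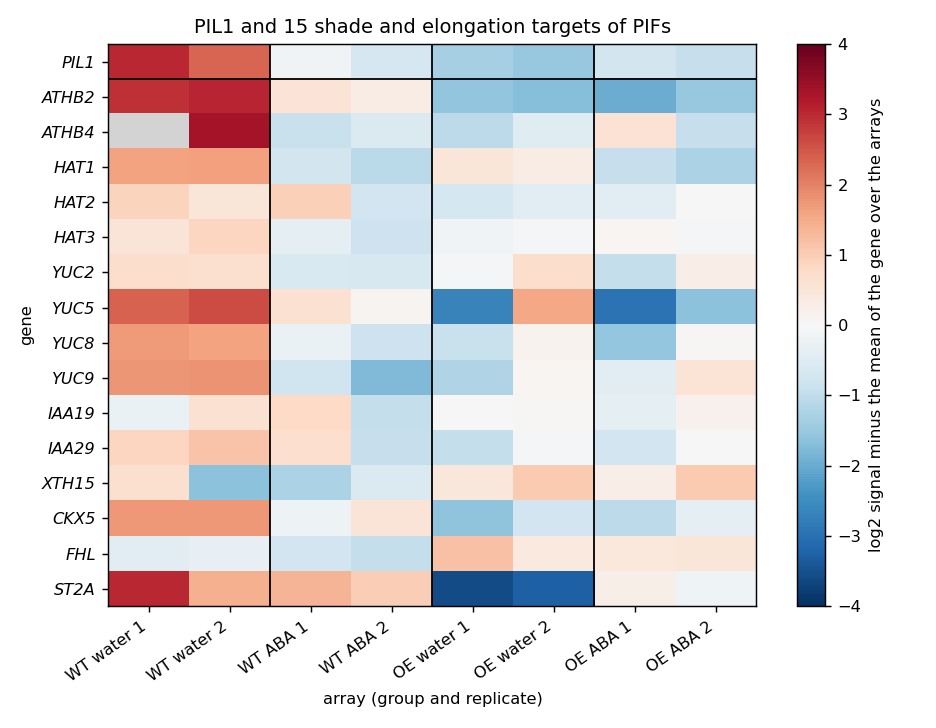
Log2 signal of PIL1 (top row) and the 15 shade and elongation genes on each array, minus the mean of the gene over the arrays, with red above and blue below that mean and grey for a left-out outlier spot. Colours are capped at 4 in either direction. PIL1, ATHB2, HAT1, HAT3, YUC5, YUC8, YUC9, IAA29, CKX5 and ST2A were higher on both WT water arrays than on all other arrays. ATHB4 was so on the 1 WT water array with a value, and HAT2, YUC2, IAA19, XTH15 and FHL were not.

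Of 8 chlorophyll and greening genes linked to PIFs, PORC (log2 1.14, adjusted p = 0.0346) and GLK2 (log2 1.18, adjusted p = 0.0232) were higher in OE in water. Under ABA PORB was higher (log2 1.20, adjusted p = 0.0377), and 0 were called lower under either treatment. Over all locus tags, 9.86% were higher in water and 4.29% under ABA. The median log2 difference of the list between OE and WT was 0.34 in water and -0.45 under ABA. Of 6 genes of dark-induced senescence downstream of PIF4 and PIF5, NAC092, a senescence regulator, and NYE1, needed for chlorophyll breakdown, were lower in OE. NAC092 was lower in water (log2 -4.92, adjusted p = 0.0016) and under ABA (log2 -2.58, adjusted p = 0.0078), and so was NYE1 (log2 -2.10 and -2.08, adjusted p = 0.0029 and 0.0042). Over all locus tags, 9.36% were lower in water and 5.62% under ABA. The other 4 were not called in any comparison. Past 2-fold with ABA without a call were ABI5 (log2 3.13 in WT and 2.78 in OE, adjusted p = 0.0973 and 0.102) and NYE1 (1.06 and 1.08, adjusted p = 0.0828 and 0.0584). NAC092 was also so in OE (1.71, adjusted p = 0.0624). The median of the list with ABA was 0.07 in WT and 0.87 in OE.

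The circadian clock restricts PIF4 and PIF5 transcription, with the evening complex of ELF3, ELF4 and LUX as a repressor of both. Of 10 clock genes, 6 were higher (ELF3, ELF4, LUX, TOC1, PRR5 and GI) and 2 lower (CCA1 and LHY) in OE in water, beside 9.86% higher and 9.36% lower over all locus tags. Under ABA the same 8 were called in the same directions, with PRR9 also lower, beside 4.29% and 5.62%. ELF4 lay between -4.44 and -4.07 on the WT arrays, at 0.05 and -0.03 in OE water and at 2.10 and 2.78 in OE ABA, and was higher in OE under ABA (log2 6.69, adjusted p = 0.0005). In that comparison LUX was higher (log2 4.28) and LHY, a morning gene, lower (log2 -6.23, adjusted p = 0.0004 each). With ABA 0 of the 10 were called in WT by limma (1 without adjustment), and ELF4, LUX and TOC1 rose in OE. PIF4 was higher and PIF5 lower on these OE arrays than on the WT arrays of the same treatment, and the part of the clock genes or of the time of harvest in the levels of the PIF genes was not tested.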

How the data were processed

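The authors deposited the scanner output of 8 single-dye arrays (Feature Extraction 10.7.3.1) as spot intensity, background-subtracted within the array, and a table of log2 values, quantile normalized over the arrays, whose column medians were all 7.585. From the intensity, control and outlier spots were left out, spots of a probe averaged, and the array's 75th percentile subtracted from the log2 signal. Of 43603 gene probes, 31267 that both arrays of any 1 group measured well above background were kept. They were fitted with limma 3.58.1 (lmFit, eBayes) under R 4.3.3, as 4 group means over all arrays (residual degrees of freedom 4, prior 1.99). A value on some array was missing for 1156 of these probes. The fit was tested on simulated data. Adjustment ran over all tested probes and 5 contrasts were made separately. The number of arrays limits the precision.

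Accessions of 34348 probes matched 25410 locus tags of the RefSeq gene table (assembly TAIR10.1), which gave the names. The array design was built on another release, so no coordinates are given. A gene was read from its brightest probe. Named genes are the 8 members, up to 3 called genes of each list with the largest change, and the 2 genes most like each member, and others are named where a count of calls is spelled out. Members, lists and tests were chosen with earlier results of these data known. Alternatives changed the normalization, background correction (normexp on median spot and background signals, since mean spot signals were not used here), filter, outlier spots, arrays in the fit, replicate or slide as a block, threshold, probe, and test (the methods' t-test, Welch's), or omitted single arrays.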

Additional observations from a re-analysis of the deposited data

How the results depend on the processing

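The 3 genes called for OE against WT in water became 1 with normexp background correction and 1 and 0 with the methods' t-test before and after Benjamini-Hochberg, and 2 to 4 when single arrays were left out. The 1 called under ABA became 0 with normexp, with no filter on dim probes, in a fit of only the groups compared and with the methods' t-test before and after adjustment, 2 with no minimum fold, and 0 to 1 without single arrays. The 1 called for ABA against water in WT became 0 with normexp, with only the groups compared and with the adjusted t-test, 3 with unadjusted p, and 0 to 1 without single arrays. The 1 called in OE (PIF6) became 0 with normexp, with only the groups compared and with the adjusted t-test. It was 2 with unadjusted p, and 0 to 1 without single arrays. With only probes above background on all 8 arrays the count was also 0, but PIF6 did not pass that filter and was not tested. The t-test before adjustment lost PIF6 and gained PIF3. The 0 called for the interaction became 2 with unadjusted p and 0 to 1 without single arrays. The t-test and the fit of only the groups compared were not run for the interaction. Over all probes, the adjusted t-test called 0 in each of the 4 comparisons. The fit of only the groups compared called 0 of 31267 probes for ABA against water in WT. No gene could keep a call there, so these losses say nothing about single members. The counts of alternatives given for single genes include these settings. They also include the looser thresholds on the main fit (no minimum fold, unadjusted p), which could not lose a call. The cause of these changes was not tested.

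With the replicate number as a block, the counts were 3, 0, 1, 0 and 0 in the order above. Deviations from the group means of same-numbered arrays correlated between -0.18 and 0.11, so the numbers did not pair the samples. Slide as a random block (consensus correlation -0.16), quantile normalization and keeping outlier spots changed none of the 5 counts.

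Signs turned only for differences that were not called. For OE against WT in water, leaving out single OE water arrays gave PIF1 -0.29 and 0.060, and leaving out single WT water arrays gave HFR1 -0.59 and 0.0037. Under ABA, PIF7 became 1.59 in the deposited table and 1.56 with outlier spots kept, PIF1 0.036, PIF6 0.82 and PIL1 0.76 with normexp, and leaving out single arrays gave PIF6 -0.60 to 0.046 and PIF1 -0.23 to 0.049. For ABA against water, leaving out single arrays gave PIF5 -0.34 to 0.064 in WT and -0.41 to 0.084 in OE, and HFR1 -0.44 to 0.055 in OE. In OE, PIF7 became 1.51 in the deposited table and 1.49 with outlier spots kept. Normexp moved the median log2 difference of all probes to 0.35 for OE against WT under ABA and 0.23 for ABA against water in OE, from 0.02 and -0.04. Over all probes, the numbers called higher and lower under ABA were 1176 and 2039, and with normexp 208 and 169. For ABA against water they were 172 and 79 in WT and 529 and 109 in OE, and with normexp 22 and 6, and 116 and 3.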
